A study of Mus musculus with 11 samples.

Results

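Interferon-beta and the genes that interferon switches on were measured in mouse macrophages at rest and after 1 hour of lipopolysaccharide (LPS), with or without prostaglandin E (PGE). The set holds 40 genes, chosen by name: the cytokines interferon-beta and interferon-alpha 4, the receptor chains that bind them, the signalling proteins and virus sensors of the same pathway, and the antiviral proteins made in response. A gene was taken where a probe set carried its symbol and no other, and 37 of the 40 were found among 18755 genes so measured. Ifi44, Ifi47 and Igtp had no probe set of their own and were not analysed here.

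Bone marrow cells of wild-type C57Bl/6 mice were kept for 1 week in medium with 5 ng/ml mCSF, a growth factor for macrophages, and the adherent cells were used 24 hours after replating. In all groups the cells therefore shared strain, culture and growth factor. The cells were left untreated (4 arrays), given 100 ng/ml LPS for 1 hour (3 arrays), or given the same LPS with 10 µM PGE for 1 hour (4 arrays). Of 12 arrays made, a single LPS array had been dropped by the authors over its quality. The kind of prostaglandin E is not named in the labels. Nothing there ties the replicates to separate mice or cultures either, so p-values measure only the spread between these arrays.

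LPS is a bacterial cell wall component sensed by the receptor TLR4. Through the adaptor TRIF (gene Ticam1) and the kinase TBK1, TLR4 activates the transcription factor IRF3, which acts with NF-kB and AP-1 on the Ifnb1 promoter. Secreted interferon-beta binds its receptor (IFNAR1 and IFNAR2), and the kinases JAK1 and TYK2 then activate a complex with STAT2 and IRF9 that binds interferon-stimulated response elements. Interferon-stimulated genes can thus be reached by IRF3 or NF-kB early, or through secreted interferon later.

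Values are on the log2 scale of the deposited table, where 1 unit equals 2-fold. Over all genes, untreated arrays had a median level of 5.92 and a lower quartile of 3.86, LPS arrays 5.96 and 3.85, and arrays with PGE 5.80 and 4.03. The median SD of a gene was 0.11, 0.12 and 0.10. All 8 measured macrophage markers lay above the upper quartile of untreated arrays (8.76). Of the markers of plasmacytoid dendritic cells, which are specialised interferon producers, 1 of 6 (Tcf4) lay above the median; the mean of the 6 ran from 5.52 to 5.64 in untreated, 5.51 to 5.67 in LPS and 5.63 to 5.86 in LPS plus PGE arrays. None of the 6 passed in either comparison with LPS arrays, and 2 passed as higher in LPS plus PGE than in untreated arrays. Of markers of conventional dendritic cells 1 of 8 lay above the median, of neutrophils 1 of 7, of B cells 1 of 4, of T and NK cells 0 of 6 and of fibroblasts 0 of 6. Some of these markers passed with PGE against LPS: Ccr7 (0.66) of the conventional dendritic cell list, Nkg7 (0.47) of the T and NK cell list, Col3a1 (0.44) of the fibroblast list and Pax5 (0.30) of the B cell list were higher, and Klrb1c (-0.98) of the T and NK cell list was lower. The part of such cells in the results was not tested. In bulk samples, fewer cells of a type and less RNA per cell cannot be told apart.

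The stretches of promoter shown here are from members that responded differently at 1 hour. They come from RefSeq sequence of build GRCm38.p6, lie upstream of the annotated start, and run 5′ to 3′ on the gene's strand. Distances count from the start that RefSeq annotates, which was not measured here and which for Ifnb1 lies close to the coding sequence. Capitals mark matches on either strand to the interferon-stimulated response element, searched as a pair of GAAA with any 2 bases between them, and to an NF-kB motif, searched as GGG, any 3 bases and TTCC. In Ifnb1 they also mark AANNGAAA, the core bound by interferon regulatory factors, which lies within every match to the response element.
Ifnb1, induced, 160 to 61 bases upstream (chr4:88522855-88522954, minus strand): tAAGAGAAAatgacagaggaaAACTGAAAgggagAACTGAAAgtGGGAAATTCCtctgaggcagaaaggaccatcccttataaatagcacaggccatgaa
Gbp5, induced, 180 to 61 bases upstream (chr3:142496754-142496873, plus strand): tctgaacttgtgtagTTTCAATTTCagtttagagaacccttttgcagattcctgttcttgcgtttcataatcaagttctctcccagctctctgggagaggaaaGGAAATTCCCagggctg
Gbp2, induced, 110 to 11 bases upstream (chr3:142620553-142620652, plus strand): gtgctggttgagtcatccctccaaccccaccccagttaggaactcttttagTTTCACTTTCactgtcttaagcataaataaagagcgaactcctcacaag
Isg15, induced, 110 to 11 bases upstream (chr4:156200829-156200928, minus strand): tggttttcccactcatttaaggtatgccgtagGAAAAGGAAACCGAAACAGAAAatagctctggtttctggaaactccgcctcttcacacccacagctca
Ifit1, induced, 130 to 31 bases upstream (chr19:34640759-34640858, plus strand): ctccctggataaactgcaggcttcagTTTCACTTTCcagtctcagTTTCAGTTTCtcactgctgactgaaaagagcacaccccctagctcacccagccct
Ifit3, flat, 170 to 71 bases upstream (chr19:34583359-34583458, plus strand): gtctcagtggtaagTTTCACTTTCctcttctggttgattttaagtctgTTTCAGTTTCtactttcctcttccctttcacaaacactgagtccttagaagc
Irgm1, flat, 100 to 1 bases upstream (chr11:48871421-48871520, minus strand): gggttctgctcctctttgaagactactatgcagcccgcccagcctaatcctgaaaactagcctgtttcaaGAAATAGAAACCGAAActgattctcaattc
Oas1a, flat, 100 to 1 bases upstream (chr5:120907526-120907625, minus strand): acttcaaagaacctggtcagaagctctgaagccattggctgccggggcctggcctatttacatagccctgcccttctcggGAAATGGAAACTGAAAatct

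The Ifnb1 stretch held 3 matches to AANNGAAA and 1 to the NF-kB motif, side by side, and none to the response element. Isg15 held 3 overlapping matches to the response element, and Ifit1 and Ifit3 held 2 each. Gbp5 held 1 match to each of the response element and the NF-kB motif.

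Setting LPS against untreated cells asked which interferon genes had moved within 1 hour and which had not. Of the 37 genes 9 rose at least 2-fold: Gbp5, Ifnb1, Isg15, Ifit1, Gbp2, Oasl1, Gbp3, Mx2 and Ifih1. Isg20 rose by less, and Stat2 and Mx1 fell. Another 21 genes are called flat here, meaning that they did not pass and that the 95% interval of their change lay within 0.5 of 0. A smaller change is not excluded for these. The remaining 4, Rsad2, Rtp4, Usp18 and Ifit2, did not pass but had wider intervals and are called unresolved. A gene passed at a limma adjusted p under 0.05, with Benjamini-Hochberg adjustment over all 18755 genes. By that rule 12 of 37 members passed (32.4%), against 13.2% of all genes. Rises made 10 of these, against 6.55% of all genes, and rises of at least 2-fold 9, against 1.57%. The 2 falls compare with 6.69% of all genes. The 21 flat genes compare with 76.9% of all genes, the 4 unresolved ones with 9.89% and the 1 raised by under 2-fold with 4.99%. The 25 members that did not pass compare with 86.8%. LPS and untreated arrays did not overlap for 17 members, 15 of them higher with LPS (10.5% of all genes) and 2 lower (12.6%). The median change was 0.13 for the members and -0.015 for all genes.

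**Figure D1:**
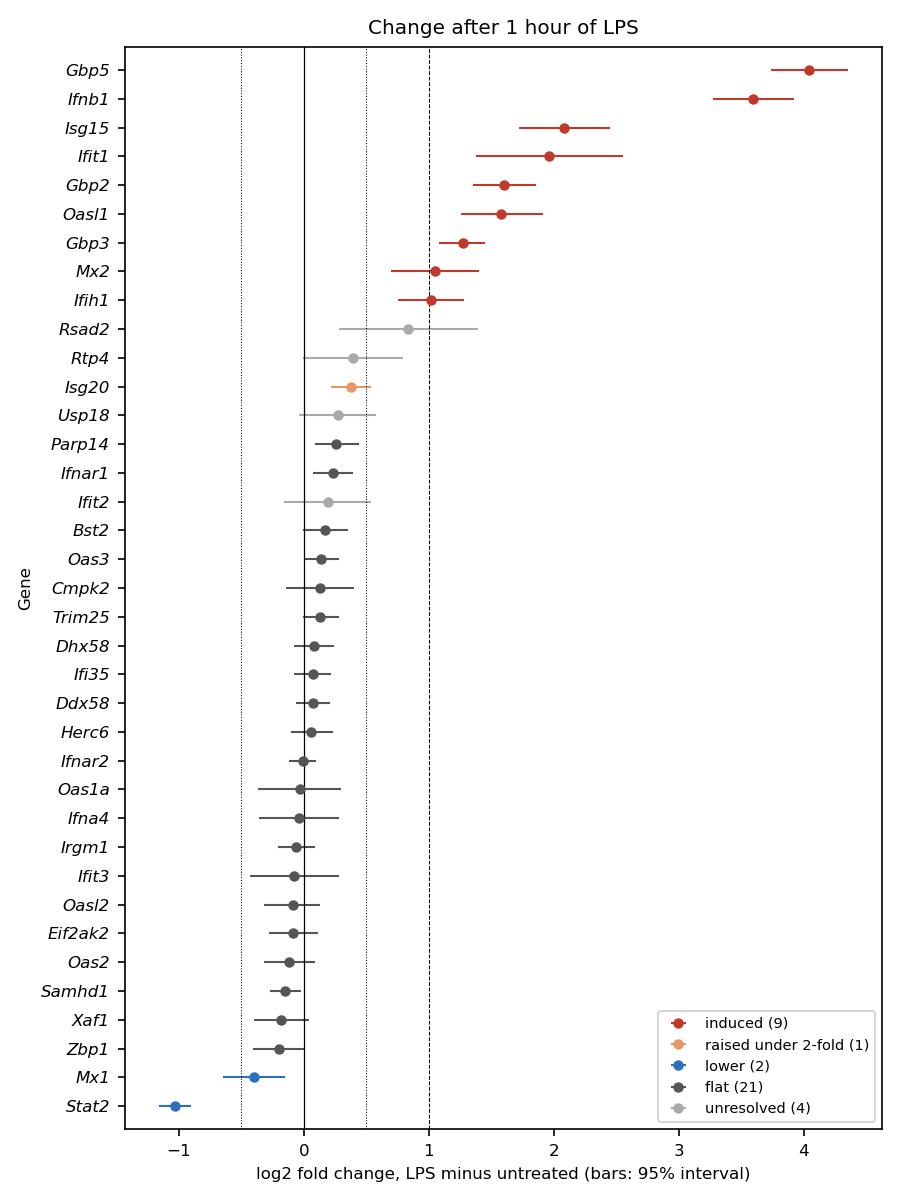
Log2 fold change of each of the 37 genes, LPS minus untreated, with its 95% interval from the limma fit and the number of genes in each class. The dashed line marks 2-fold and the dotted lines mark 0.5 either side of 0. Gbp5 and Ifnb1 stand at 4.04 and 3.59, and the whole intervals of 21 genes lie between the dotted lines.

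Among the ligands, Ifnb1 and Ifna4 differed. Ifnb1, the interferon gene that macrophages switch on early, read 4.05, 3.82, 3.54 and 3.93 in untreated arrays and 7.15, 7.63 and 7.50 in LPS arrays. With PGE it read 7.02, 7.05, 6.87 and 6.59. Every treated array lay above every untreated array. The rise with LPS was 3.59 ± 0.15 (SE, limma adjusted p = 5.17e-09). The untreated mean (3.83 ± 0.22, SD, n = 4) lay under the lower quartile, where a low level was not told from none, so this 12.1-fold change is read as a lower limit. Ifna4, one of the interferon-alpha genes, had an untreated mean of 3.37 ± 0.22 and an LPS mean of 3.33 ± 0.14, both under the lower quartile. Its change was -0.04 ± 0.15. Of 12 other interferon genes measured none passed with LPS in limma (4 at an unadjusted p under 0.05), and their untreated means ran from 3.03 to 5.44.

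The receptor genes were bright and moved little. Ifnar1 stood at 10.68 ± 0.10 in untreated and 10.91 ± 0.05 in LPS arrays. Its LPS arrays did not overlap the untreated ones, but the change of 0.23 ± 0.07 did not pass (limma adjusted p = 0.0614). The 95% interval (0.07 to 0.39) left out 0, and the change passed under 4 of 19 alternative settings. Ifnar2 stood at 11.61 ± 0.01 and 11.60 ± 0.03, a change of -0.01 ± 0.05 with a 95% interval from -0.12 to 0.10.

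Of the genes for signalling and its feedback, Stat2 fell and Isg15 rose. Stat2, part of the complex that carries the interferon signal to DNA, read 8.80, 8.70, 8.78 and 8.75 in untreated arrays and 7.80, 7.74 and 7.64 in LPS arrays. The groups were wide apart, and LPS left 49.0% of the untreated level (-1.03 ± 0.06, limma adjusted p = 1.5e-07). A fall of at least 2-fold was found for 0.363% of all genes. Stat2 lay near that line, with a change from -1.10 to -0.99 over 19 alternative settings. Isg15, a ubiquitin-like protein that is joined to other proteins, read 4.88, 4.41, 5.22 and 4.89 in untreated and 7.02, 6.95 and 6.83 in LPS arrays. Its rise was 2.08 ± 0.17, or 4.24-fold. Usp18, which removes ISG15 from proteins and restrains the receptor, was unresolved (0.27 ± 0.14). Herc6, a ligase for ISG15 (0.06 ± 0.07), and Trim25, a ubiquitin ligase that acts on the RIG-I sensor (0.13 ± 0.06), were flat.

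Of the 5 sensor genes only Ifih1 passed. Ifih1 encodes MDA5, a sensor of long viral RNA, and read 8.90, 8.83, 8.95 and 8.76 in untreated arrays against 9.67, 10.19 and 9.77 with LPS. All LPS arrays were higher, and the rise was 1.02 ± 0.12 (limma adjusted p = 0.000101). The related sensor genes Ddx58, which encodes RIG-I (0.07 ± 0.06), and Dhx58, which encodes LGP2 (0.08 ± 0.07), were flat with limma adjusted p-values of 0.514 and 0.541. Flat as well were the nucleic acid sensor Zbp1 (-0.20 ± 0.10) and the kinase Eif2ak2, or PKR (-0.09 ± 0.09).

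The OAS family split too. These genes encode enzymes that make a messenger activating RNase L, and their OAS-like relatives. Oasl1 read 5.77, 5.54, 5.44 and 5.69 in untreated arrays and 7.05, 7.51 and 7.03 with LPS, a rise of 1.58 ± 0.15 (limma adjusted p = 1.27e-05). Its relative Oasl2 read 9.32, 9.04, 9.21 and 9.35 in untreated arrays and 9.15, 9.04 and 9.21 with LPS. Those arrays overlapped, and the 95% interval of the change ran from -0.32 to 0.13, against 1.26 to 1.91 for Oasl1. Oas1a, Oas2 and Oas3 were flat, with changes from -0.12 to 0.14.

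In the IFIT family 1 of 3 genes rose. IFIT proteins bind viral RNA and block its translation. Ifit1 read 6.34, 6.41, 7.13 and 6.48 in untreated arrays and 8.63, 8.90 and 8.13 with LPS. It was higher in every LPS array, by 1.96 ± 0.27 (3.90-fold, limma adjusted p = 0.000317). Ifit3 read 7.80, 7.81, 8.44 and 7.81 in untreated and 7.82, 8.01 and 7.84 in LPS arrays, which overlapped. Its change was -0.08 ± 0.16, and the interval (-0.43 to 0.28) lay apart from that of Ifit1 (1.38 to 2.55). Ifit2 did not pass either (0.19 ± 0.16). The printed promoters of Ifit1 and Ifit3 each hold 2 matches to the response element.

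The Mx genes belong to a family of dynamin-like antiviral GTPases, and they passed in opposite directions. Whether these C57Bl/6 cells make working Mx proteins was not measured. Mx2 read 4.53, 4.59, 5.00 and 4.73 in untreated arrays and 5.57, 6.14 and 5.58 with LPS. The groups did not overlap and the rise was 1.05 ± 0.16 (limma adjusted p = 0.000749). Mx1 read 5.05, 4.81, 5.38 and 5.18 in untreated and 4.59, 4.72 and 4.82 in LPS arrays. Those arrays overlapped slightly and the fall was small (-0.40 ± 0.11, limma adjusted p = 0.0397). It did not pass under 11 of 19 alternative settings, in which the adjusted p ran from 0.00631 to 0.124; among them were the fits without LPS replicate 1 (0.124) and LPS replicate 2 (0.0896).

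Rsad2 and Cmpk2 are neighbouring antiviral genes, the first encoding viperin and the second a nucleotide kinase. Rsad2 read 7.40, 7.40, 8.12 and 7.57 in untreated arrays and 8.49, 8.84 and 8.04 with LPS. One untreated array lay within the LPS range, and the change of 0.83 ± 0.26 narrowly missed the threshold (limma adjusted p = 0.0517). Over the 19 alternatives that adjusted p ran from 0.0243 to 0.184 and passed in 6; it passed without untreated replicate 3 (0.0243), LPS replicate 3 (0.0318), LPS plus PGE replicate 1 (0.0428) or LPS plus PGE replicate 3 (0.0496). Cmpk2 was flat (0.13 ± 0.12).

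The exonuclease gene Isg20 read 7.69, 7.48, 7.65 and 7.67 in untreated and 7.95, 8.06 and 7.99 in LPS arrays, without overlap. It rose by 0.38 ± 0.07, or 1.30-fold (limma adjusted p = 0.0037). Bst2, which encodes the virus-tethering protein tetherin (0.17 ± 0.08), Samhd1, a nucleotide-degrading enzyme (-0.15 ± 0.06), Xaf1 (-0.18 ± 0.10), Ifi35 (0.07 ± 0.07) and the ADP-ribosyltransferase Parp14 (0.26 ± 0.08) were flat. Among these flat genes, the 95% intervals of Parp14 (0.09 to 0.44) and Samhd1 (-0.27 to -0.02) left out 0. Their LPS arrays did not overlap the untreated ones. Parp14 (limma adjusted p = 0.0537) passed under 3 of 19 alternatives and Samhd1 (0.138) under 1. The chaperone gene Rtp4 was unresolved (0.39 ± 0.18).

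Of 4 interferon-induced GTPases, 3 rose. Guanylate-binding proteins attack the vacuoles and membranes of intracellular microbes. Gbp5 read 4.93, 4.87, 5.19 and 4.84 in untreated arrays and 8.90, 9.21 and 8.89 with LPS. This 16.5-fold rise (4.04 ± 0.14, limma adjusted p = 9.37e-10) separated the groups without overlap. Gbp2 read 7.18, 7.33, 7.38 and 7.13 in untreated and 8.70, 9.13 and 8.74 in LPS arrays, a rise of 1.60 ± 0.12. Gbp3 read 7.20, 7.09, 7.10 and 7.21 in untreated and 8.30, 8.51 and 8.44 in LPS arrays, a rise of 1.27 ± 0.09. Both were higher in all LPS arrays. Irgm1, a GTPase of the immunity-related family, was flat (-0.06 ± 0.07), with a mean of 9.29 ± 0.07 in untreated and 9.23 ± 0.06 in LPS arrays.

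**Figure D2:**
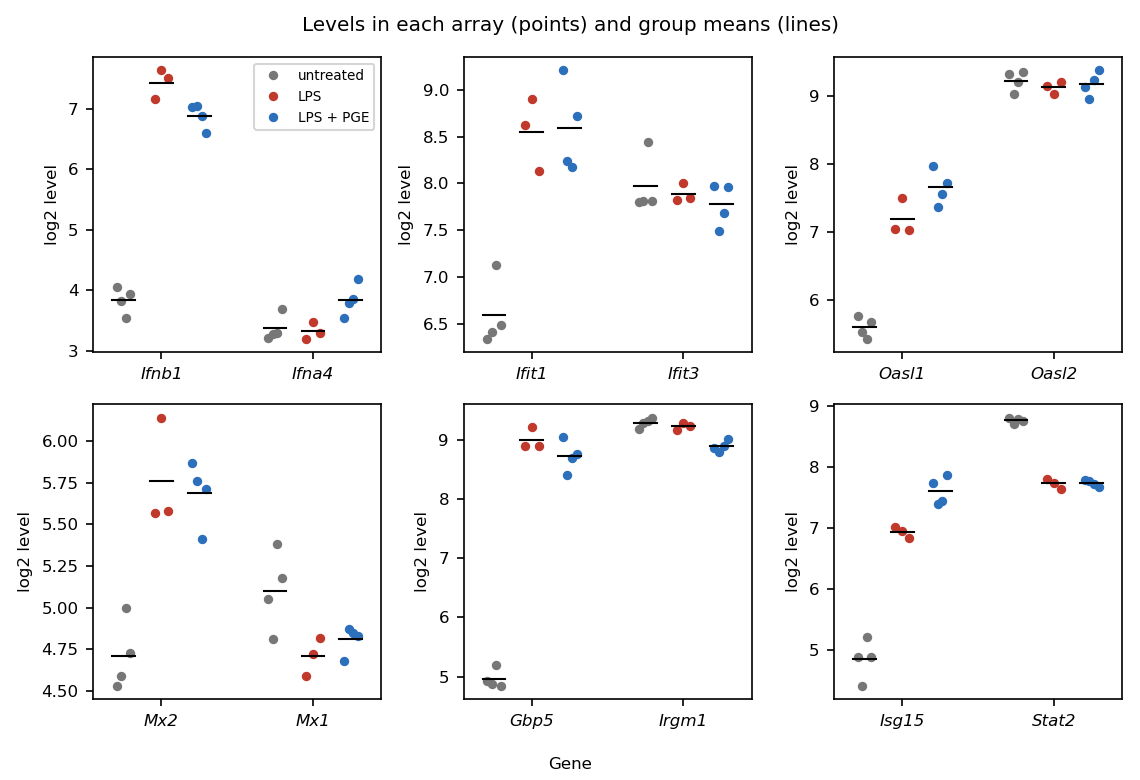
Log2 level of 12 genes in each array (points) with the group means (lines), for untreated, LPS and LPS plus PGE arrays; the vertical axes differ between panels and do not start at 0. Ifit1, Oasl1, Mx2 and Gbp5 rose with LPS beside Ifit3, Oasl2 and Irgm1, which stayed flat, and Mx1, which fell.

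Promoter sequence was held for 29 of the 37 genes; Usp18, Dhx58, Zbp1, Oas2, Mx1, Mx2, Rtp4 and Parp14 were not among them. In the window from 250 bases before to 50 after the start, the response element was found on either strand in 6 of 8 induced genes (all but Ifnb1 and Oasl1) and in 8 of 17 flat genes. It was found in 3.44% of all 32851 promoters of that length. That share counts promoters, whereas a gene was counted if any of its promoters matched (Gbp3 had 2, of which 1 matched). The NF-kB motif was found in 3 of 8 induced genes (Ifnb1, Gbp2 and Gbp5), in 3 of 17 flat genes and in 5.56% of all promoters. The core AANNGAAA was in 8 of 8 induced and 11 of 17 flat genes, against 23.9% of all promoters. TTCNNNGAA, the gamma-activated site, was in 1 of 8 induced (Gbp5) and 7 of 17 flat genes, against 8.30%. The cyclic AMP response element TGACGTCA was in 0 of 8 and 0 of 17, against 1.79%. These letters are a description of the windows and not of factor binding.

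Other genes of the pathway were counted from lists that do not overlap the members, and their counts are read beside the 6.55% of all genes that rose with LPS and the 6.69% that fell. On the route from TLR4 to IRF3, 7 of 14 genes rose and 3 fell with LPS, with a median change of 0.16. They included the LPS co-receptor Cd14 (1.64 ± 0.06), the ubiquitin ligase Peli1 (0.79 ± 0.10), Ticam1 (0.72 ± 0.08) and Tank, a partner of TBK1 (0.59 ± 0.09). Of 8 interferon regulatory factors 3 rose (Irf1 by 2.58 ± 0.09, Irf4 by 1.96 ± 0.22, Irf3 by 0.30 ± 0.07). Of 12 genes for receptor signalling 3 rose: the inhibitors of cytokine signalling Socs3 (5.90 ± 0.12) and Socs1 (0.93 ± 0.15) and the phosphatase Ptpn2 (0.48 ± 0.08). Among 65 further interferon-stimulated genes 15 rose and 5 fell, and the median change was -0.01. The chemokines Cxcl10 (5.65 ± 0.15) and Ccl5 (3.78 ± 0.21), the lymphocyte activation marker Cd69 (4.13 ± 0.22) and Ifi205 (3.74 ± 0.26) rose the most in that list. The other 45 did not pass.

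In some arrays most members deviated from the group mean to the same side. Of the 37 genes, 30 lay under the untreated mean in untreated replicate 2 and 27 above it in untreated replicate 3. In the other groups, LPS replicate 2 had 27 above its group's mean, LPS plus PGE replicate 2 had 30 below and LPS plus PGE replicate 4 had 30 above. Over all genes the share above the group mean in these 5 arrays was 45.0% to 52.6%. Untreated replicate 1 and LPS plus PGE replicate 3 were split evenly, with 18 members above and 19 below in each. The deviations were small for most genes (median -0.09 in untreated replicate 2 and 0.07 in LPS plus PGE replicate 4) and larger for Ifit1 and Rsad2. Those genes deviated to the same side in 11 of 11 arrays, by 0.54 and 0.50 in untreated replicate 3 and by -0.42 and -0.41 in LPS replicate 3. With PGE they deviated by 0.62 and 0.47 in replicate 1 and by -0.40 each in replicate 3. Deviations sum to 0 within a group, so the 11 arrays are not separate observations. No other pair of genes was compared in this way.

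**Figure D3:**
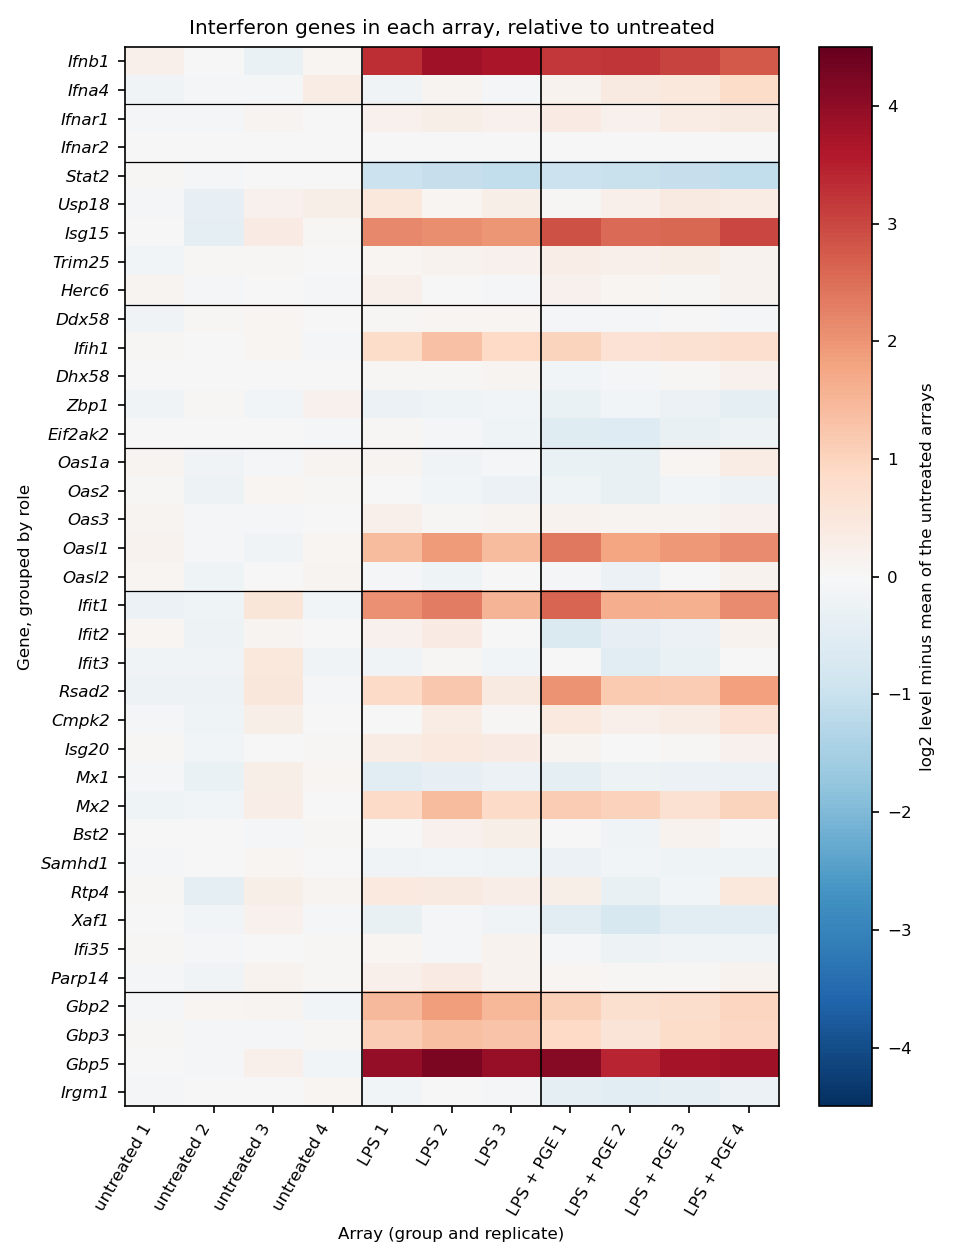
Each cell is the log2 level of a gene in an array minus the mean of the untreated arrays; rows are the 37 genes grouped by role and columns are the 11 arrays. Gbp5, Ifnb1 and Isg15 are the darkest red rows in the treated arrays, Stat2 is blue in all 7, and most other rows stay pale.

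LPS plus PGE against untreated cells gave the state of the same genes under the combined stimulus. It shares the untreated arrays with the comparison above, so both are given side by side without a test of their likeness. Of 37 genes 14 rose and 7 fell, or 56.8% passing against 31.7% of all genes (13.8% rising and 17.9% falling). Equal array medians shift the median change of all genes from 0.017 to 0.143 and gave 18 rises and 4 falls (5747 and 1724 over all genes), and cyclic loess normalization gave 17 and 5 (2017 and 1880). Rises of at least 2-fold were 6, against 1.86% of all genes, and the only such fall was that of Stat2, against 1.11%. Stat2 was near the 2-fold line, with a change from -1.05 to -0.86 over the 19 alternatives. The 16 that did not pass compare with 68.3%. All 9 genes induced by LPS alone passed as higher here, among them Gbp5 (3.77 ± 0.13), Ifnb1 (3.05 ± 0.14), Isg15 (2.76 ± 0.15), Oasl1 (2.05 ± 0.14) and Ifit1 (2.00 ± 0.25). Mx2 (0.97 ± 0.15), Gbp2 (0.89 ± 0.11), Gbp3 (0.81 ± 0.08) and Ifih1 (0.77 ± 0.11) rose by less than 2-fold. Mx2 (1.05) and Ifih1 (1.02) had been near the 2-fold line with LPS alone. Their lowest change over the 19 alternatives was 0.86 each, and neither passed with PGE against LPS.

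Rsad2, unresolved with LPS alone, passed with LPS plus PGE. It read 9.64, 8.81, 8.77 and 9.47, above every untreated array, and rose by 1.55 ± 0.24 (2.93-fold, limma adjusted p = 0.000403). Cmpk2 rose by 0.42 ± 0.11, Ifnar1 by 0.34 ± 0.07 and Trim25 by 0.24 ± 0.06. Ifna4 passed as well (0.47 ± 0.14, limma adjusted p = 0.0216), but its mean of 3.84 lay under the lower quartile of those arrays, and that adjusted p rose to 0.14 with quantile normalization and passed 0.05 without LPS plus PGE replicate 4 (0.0549) or untreated replicate 1 (0.0571) or 3 (0.0532). Stat2 fell by 1.03 ± 0.06, to 49.0% of its untreated level. Xaf1 (-0.56 ± 0.09), Eif2ak2 (-0.42 ± 0.08), Irgm1 (-0.40 ± 0.06), Mx1 (-0.30 ± 0.11), Zbp1 (-0.27 ± 0.09) and Samhd1 (-0.20 ± 0.05) fell too. With cyclic loess normalization Eif2ak2 (limma adjusted p = 0.0589) and Zbp1 (0.171) did not pass, and with equal array medians neither did Samhd1 (0.383), Mx1 (0.217) or Zbp1 (0.224). Leaving out any array but untreated replicate 2 ended the Mx1 call, with adjusted p-values up to 0.129. The Zbp1 call ended with quantile normalization, where the change was -0.09 (0.529), and without LPS plus PGE replicate 1 (0.0819), 3 (0.0659) or 4 (0.0901) or untreated replicate 2 (0.0796) or 4 (0.0957).

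What PGE added was read from LPS plus PGE against LPS alone. No arrays had PGE without LPS, so an effect of PGE by itself cannot be told from a change in the response to LPS. Changes were small: none of the 37 genes rose (0.565% of all genes) or fell (0.149%) by 2-fold in limma, adjusted or at an unadjusted p under 0.05. Of the genes 3 were higher and 9 lower with PGE. These 12 of 37 (32.4%) compare with 24.7% of all genes (11.9% higher and 12.9% lower), so the share lies near the background. The 25 that did not pass compare with 75.3%. The split depended on the scaling, as did that of all genes. With equal array medians it was 10 higher and 2 lower, where 5850 of all 18755 genes were higher, 718 were lower and their median stood at 0.154. It was 3 and 2 after cyclic loess normalization (1135 and 1038 of all genes), and 2 and 3 after quantile normalization (932 and 967). Without LPS replicate 3 the count was 5, and without LPS replicate 1 it was 7.

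Gbp2 had the largest change among these and was the only one of the 12 to pass under all 19 alternatives. It read 8.33, 7.97, 8.05 and 8.22 with PGE against 8.70, 9.13 and 8.74 with LPS alone. Every array with PGE was lower, at 61.1% of the LPS level (-0.71 ± 0.12, limma adjusted p = 0.00194). Gbp3 followed, with 8.05, 7.74, 7.98 and 8.07 against 8.30, 8.51 and 8.44 (-0.46 ± 0.09, limma adjusted p = 0.00374; 0.0506 after cyclic loess normalization). Gbp5 did not pass (-0.27 ± 0.14, 95% interval from -0.58 to 0.03). Irgm1, flat with LPS alone, was lower with PGE (-0.34 ± 0.07, limma adjusted p = 0.00644), but not with equal array medians (0.125) or cyclic loess normalization (0.0728).

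Ifnb1 was lower with PGE in all 4 arrays, at 68.7% of the LPS level. The difference of -0.54 ± 0.15 passed (limma adjusted p = 0.022) and was below 0 under all 19 alternatives, but 5 of these did not pass. They were quantile normalization (0.146), equal array medians (0.059) and the fits without LPS replicate 2 (0.074), LPS replicate 3 (0.0724) or LPS plus PGE replicate 4 (0.0505). Isg15 went the other way. It read 7.73, 7.39, 7.44 and 7.87 with PGE, above all LPS arrays, a difference of 0.68 ± 0.17 (limma adjusted p = 0.0141; 0.0529 without LPS replicate 3). Oasl1 read 7.97, 7.38, 7.57 and 7.73, which overlapped the LPS arrays. Its difference of 0.47 ± 0.15 passed (limma adjusted p = 0.0399) but not under 7 of 19 alternatives, where that adjusted p reached 0.138 without LPS replicate 3. Those without LPS replicate 1 (0.124) or LPS plus PGE replicates 1 (0.0978), 3 (0.0556) or 4 (0.0795) were among the 7.

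**Figure D4:**
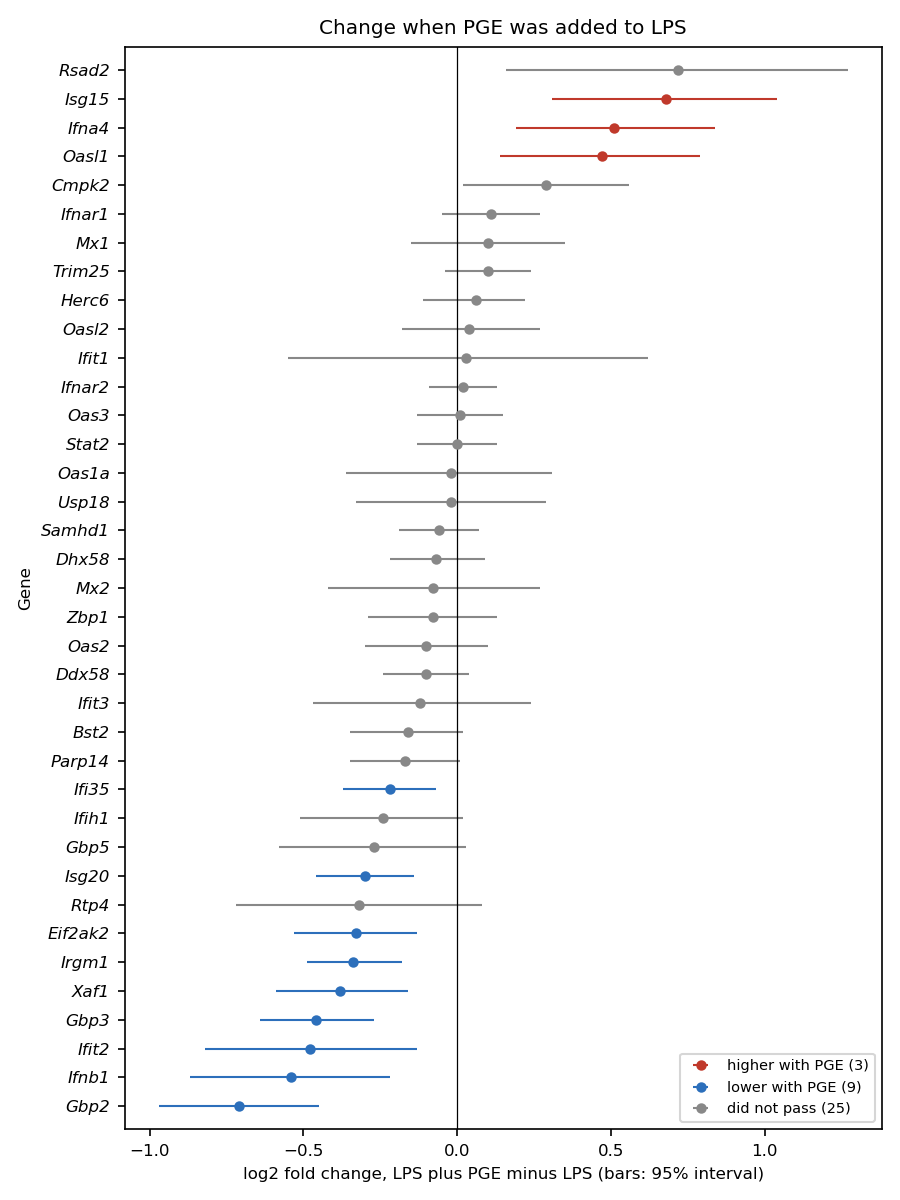
Log2 fold change of each of the 37 genes, LPS plus PGE minus LPS alone, with its 95% interval from the limma fit. Genes that passed are red (3, higher with PGE) or blue (9, lower); Gbp2 (-0.71) is the lowest, and Rsad2 (0.72), which did not pass, has the highest value and one of the widest intervals.

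The other genes that passed moved by less. Isg20 was lower with PGE (-0.30 ± 0.07), with readings of 7.73, 7.59, 7.68 and 7.80 near the untreated ones. Against untreated it did not pass in the main fit (0.08 ± 0.07). It did pass as higher with cyclic loess normalization (0.25, limma adjusted p = 0.0196) and with equal array medians (0.20, 0.0429). Xaf1 (-0.38 ± 0.10), Eif2ak2 (-0.33 ± 0.09), Ifit2 (-0.48 ± 0.16) and Ifi35 (-0.22 ± 0.07) were lower. The calls of these 5 genes against LPS ended under quantile and under cyclic loess normalization, and with equal array medians. That of Xaf1 also ended without LPS replicate 2 (0.0638) or 3 (0.0573), and that of Eif2ak2 without LPS replicate 1 (0.0779) or LPS plus PGE replicate 1 (0.059) or 2 (0.0528). That of Ifi35 ended without LPS replicate 1 (0.0996) or 3 (0.133), LPS plus PGE replicate 2 (0.0949), 3 (0.0783) or 4 (0.0746) or untreated replicate 3 (0.0523). The Ifit2 call ended with the 2 groups alone (0.0737) and in 9 of the 11 fits without 1 array, with adjusted p-values up to 0.138; the exceptions were LPS plus PGE replicate 4 and untreated replicate 2. Ifna4 was higher (0.51 ± 0.15), again at a level under the lower quartile. That call ended with quantile (0.182) and cyclic loess (0.153) normalization, and without LPS replicate 1 (0.088) or 3 (0.077) or LPS plus PGE replicate 3 (0.0547) or 4 (0.0578). Rsad2 (0.72 ± 0.26, limma adjusted p = 0.0601) and Cmpk2 (0.29 ± 0.12, limma adjusted p = 0.101) did not pass. Over the 19 alternatives Rsad2 passed as higher in 5, with adjusted p-values from 0.0228 to 0.217. Cmpk2 passed as higher in 2, with equal array medians (0.0228) and cyclic loess normalization (0.0447). Ifit1 (0.03 ± 0.27, 95% interval from -0.55 to 0.62), Mx2 (-0.08 ± 0.16, -0.42 to 0.27) and Ifih1 (-0.24 ± 0.12, -0.51 to 0.02) did not pass, with intervals reaching down to -0.42 or lower. For Stat2 the difference was 0.00 ± 0.06 and the interval narrower (-0.13 to 0.13).

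Of the 9 induced genes 3 were lower with PGE (Ifnb1, Gbp2 and Gbp3), 2 were higher (Isg15 and Oasl1) and 4 did not pass, beside 12.9% of all genes lower and 11.9% higher. Those 9 had been chosen for high levels in the same LPS arrays that serve as the reference here. The counts of the other lists stand beside the same shares and come from the main fit alone, without a check under the other scalings. By them, the TLR4 route had 7 of 14 genes lower and 1 higher, led by Ticam1. That adaptor gene fell from 9.27 ± 0.09 with LPS to 8.27 ± 0.11 with PGE (-1.0 ± 0.08, limma adjusted p = 7.3e-06). The kinase gene Ikbke (-0.38 ± 0.08) and Tank (-0.29 ± 0.09) were lower and Cd14 (0.59 ± 0.06) was higher. Of the interferon regulatory factors 3 of 8 were lower, led by Irf1 (-0.98 ± 0.09), followed by Irf8 and Irf9 (-0.24 ± 0.07 each). In receptor signalling Socs1 rose by a further 1.19 ± 0.15, while Tyk2 (-0.30 ± 0.07) and Ptpn11 (-0.26 ± 0.06) were lower. Of the 65 further interferon-stimulated genes 6 were higher and 17 lower. Ifitm1, which encodes a membrane protein that restricts virus entry, did not pass with LPS (-0.04 ± 0.22) and was higher with PGE (1.39 ± 0.22), and Helz2 was higher (0.74 ± 0.11). The chemokine gene Ccl12 (-0.83 ± 0.18) and Slfn8 (-0.63 ± 0.09) were lower. Of the other interferons, Ifnl2 (0.93 ± 0.23) and Ifng (0.35 ± 0.12) were higher and Ifna12 (-0.51 ± 0.16) lower, all at means under 6. Means of Ifng (3.48 with LPS, 3.82 with PGE) and Ifna12 (3.26 and 2.75) lay under the lower quartiles of those arrays. A low level was not told from none there. Ifng arrays overlapped (limma adjusted p = 0.0469), and Ifnl2 had an SD of 0.66 in LPS arrays.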

How the data were processed

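Affymetrix mouse gene 1.1 ST arrays were hybridised with 250 ng of total RNA per sample. The authors deposited a table of log2 values for 35309 probe sets. The log2 scale was inferred from their range (1.20 to 13.81) and from RMA, which the submitters' processing notes name beside Affymetrix Power Tools, R 2.13.1 and Partek; their roles, and the genome build, are not given in the sources used here.

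Of the probe sets 21143 carried 1 symbol, 1870 several and 12296 none. The highest-mean row per gene gave 18755 genes, and each of the 37 members had 1 row. No filter on low values was used, so all 37 were tested. The 3 group means were estimated in a single limma fit (version 3.58.1, R version 4.3.3) over the 11 arrays, with 8 residual and 3.77 prior degrees of freedom, two-sided tests and Benjamini-Hochberg adjustment over all genes. Intervals are 95% and not adjusted. Figures used matplotlib 3.10.9. The code was tested on simulated data. Array number limits the precision.

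The members and lists were chosen with earlier results of these data known. All measured members are named, and from each list at most 4 genes that passed, by size of change, in LPS against untreated and in LPS plus PGE against LPS. Comparisons were unpaired. The alternatives were other normalizations, variance models, samples, filters, rows per gene, a size threshold, a replicate block and each array left out.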

Additional observations from a re-analysis of the deposited data

Results flagged for a closer look

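In groups of 4 arrays, 5 of 74 tested sets of values had an array far from the other 3, where chance gives about 1 in 20. Ifit3 read 8.44 in untreated replicate 3, against 7.80 to 7.81 in the others. Oas2 read 7.13 in untreated replicate 2, against 7.40 to 7.45. Ifna4 read 3.69 in untreated replicate 4, against 3.21 to 3.29. Xaf1 read 6.31 in LPS plus PGE replicate 2, against 6.53 to 6.56 in the rest. Ddx58 read 9.19 in LPS plus PGE replicate 3, against 9.13 to 9.14.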

How the results depend on the processing

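With LPS against untreated, 11 of 12 calls passed under all 19 alternatives other than the size threshold (all but Mx1); with LPS plus PGE 16 of 21 did, and with LPS plus PGE against LPS 1 of 12 (Gbp2). No called member changed sign. All genes called with a 2-fold threshold were 362, 557 and 134 in the 3 comparisons, and members 7 for LPS plus PGE against untreated and 0 against LPS. After cyclic loess normalization 3897 genes passed for LPS plus PGE against untreated and 2173 against LPS, with 5 members; after quantile normalization 1899 and 5. Leaving out each array gave 2945 to 4455 genes and 5 to 12 members for LPS plus PGE against LPS. It gave 1 to 2 lower, 1 to 4 raised under 2-fold and 2 to 6 unresolved members at 1 hour, and 7 to 10 induced. Members lower were 1 with 2 groups alone, cyclic loess or quantile normalization. Members raised under 2-fold were 2 with 2 groups alone, cyclic loess, equal medians or the replicate block, 3 with quantile normalization or the trended variance and 4 with the dimmest genes left out. The labels give no pairing by replicate number. Deviations of same-numbered arrays correlated at -0.020 to 0.207 across genes, not all over 0.1. For differently numbered arrays of different groups the range was lower, from -0.138 to 0.095. Whether same-numbered arrays share a source was not tested, and the main fit has no term for it. With the replicate block 12, 21 and 11 members passed, and Oasl1 against LPS did not (limma adjusted p = 0.0663). Causes were not tested. Genes at the low end have no measured background, which limits Ifnb1 and Ifna4.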

Other observations

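Probe sets shared by several genes hold 2 of the genes that could not be measured alone. The row for Irgm2 and Igtp, both immunity-related GTPases, read 7.858, 7.908, 7.995 and 7.911 in untreated arrays. It read 7.484, 7.465 and 7.693 with LPS and 7.180, 7.328, 7.196 and 7.353 with LPS plus PGE, so the groups did not overlap. The row for Olfr56 and Ifi47 read 5.534 to 6.045 in untreated, 5.605 to 5.738 in LPS and 5.428 to 5.742 in LPS plus PGE arrays, which overlapped. A second Gbp5 row, shared with Gbp2b, read 3.56 to 3.74 in untreated, 3.79 to 3.94 in LPS and 3.94 to 4.15 in LPS plus PGE arrays. A second Oas1a row, shared with Oas1g, read 8.38 to 8.75, 8.22 to 8.52 and 8.20 to 8.61. None of these rows was tested.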
